A study of Arabidopsis thaliana with 14 samples.

Results

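ATG8E (AT2G45170), ATG8F (AT4G16520) and ATG8H (AT3G06420) are 3 of the 9 ATG8 autophagy genes of Arabidopsis thaliana. They are described here in roots and inflorescences of the gir mutant and of its wild type, Col-7. Each was taken as the probe set that names that gene alone in the platform annotation, which gave 3 probe sets of the 22810 on the array. The 3 genes had been picked with their gir against Col-7 differences in both tissues already known. Those differences are therefore given as levels, with no test. The other 6 ATG8 genes, which also have a probe set each, were tested. A probe set whose listed symbol is APG8H stands for ATG8I (AT3G15580) and is not ATG8H.

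The gir mutant was named for root growth that glucose inhibits. Root samples came from gir plants (3 arrays) and Col-7 plants (3 arrays) aged 21 days, both on agar with 4% glucose. The design text gives 11 days without glucose followed by 10 days with it, while the growth protocol gives 7 days on a first plate, so the durations are uncertain. Inflorescence samples came from gir plants (4 arrays) and Col-7 plants (4 arrays) grown on soil and aged 33 days, with open and opening flowers removed. The sources used here name no mutant allele, number of mutant lines or number of plants per sample, and no locus was tied to GIR1, so the mutated gene was not analysed here. Nothing in the labels states that replicates were separate plants or cultures. The p-values then set each difference only against the variation between these samples, which may be technical.

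Autophagy delivers cytoplasm and organelles to the vacuole inside double-membrane vesicles. ATG8 is a small ubiquitin-like protein that is joined to a membrane lipid, coats the growing vesicle and binds the receptors that bring in cargo. The protease ATG4 first trims most ATG8 proteins to expose the glycine that is joined to the lipid, after which ATG7, ATG3 and the ATG5, ATG12 and ATG16 complex carry out the conjugation. In Arabidopsis ATG8E and ATG8F belong to the forms that need trimming, whereas ATG8H and ATG8I end in the glycine already. Carbon starvation induces autophagy, and the kinase TOR represses it when sugar is plentiful.

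All values are MAS5 intensities on a linear scale. Log2 differences were taken after adding 26 to each intensity, so changes of dim genes come out too small. The root hair and anther markers were high in the labelled tissue and low in the other. Roots also gave signal for the photosynthetic genes RCA and LHCB4.1, whose 2 probe sets summed to 2566 to 2744 in gir and 2647 to 2797 in Col-7. In inflorescences these summed to 20580 to 22700 in gir and 16470 to 18490 in Col-7. The 2 root hair probe sets summed to 2251 to 2368 on gir and 1933 to 2061 on Col-7 root arrays, and to at most 91.5 on any inflorescence array. The 6 probe sets of tapetum and early anther genes summed to 6856 to 7328 in gir inflorescences and 6664 to 8416 in Col-7 inflorescences, against at most 131 in any gir root array and 127 in any Col-7 root array. The 25S ribosomal RNA control set the inflorescence arrays apart by replicate number. It lay at 359 to 954 in gir and 344.5 to 835 in Col-7 for replicates 1 and 2, and at 2768 to 8660 in gir and 3424 to 6585 in Col-7 for replicates 3 and 4.

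In gir roots ATG8E, ATG8F and ATG8H were all higher than in Col-7 roots, with no overlap between the genotypes. ATG8E measured 796, 789.6 and 749 on the gir arrays, against 559, 442 and 493 on the Col-7 arrays. The lowest gir array thus stood well above the highest Col-7 array. The means were 778 ± 25.5 in gir and 498 ± 58.6 in Col-7 (SD, n = 3 each), a log2 difference of 0.62 ± 0.09 (SE), or 1.54-fold. ATG8F measured 3748, 3881 and 3794 in gir roots, against 3051, 3083 and 2866 in Col-7 roots. Both groups were tight and lay apart. Its log2 difference was 0.34 ± 0.07, or 1.27-fold. ATG8H, the form that needs no trimming, measured 1087, 1067 and 1114 in gir roots, against 851, 748 and 842 in Col-7 roots. Its log2 difference was 0.41 ± 0.08, or 1.33-fold.

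Of the 13799 probe sets tested in roots, 98.9% had a smaller log2 difference than ATG8E, 96.4% a smaller one than ATG8H and 94.6% a smaller one than ATG8F. The median over all of them was -0.01. All gir arrays lay above all Col-7 arrays for 3 of the 3 genes and for 15.5% of the tested probe sets. As the genes were picked on this contrast, nothing can be read from that count or from their places among the probe sets. Across the replicates the coefficient of variation was 3.27%, 1.76% and 2.19% in gir roots for ATG8E, ATG8F and ATG8H, against 11.8%, 3.9% and 7.06% in Col-7 roots. Other measures moved with genotype in the same arrays. The ratio of 3′ to 5′ actin signal, a sign of RNA integrity, was 1.67 ± 0.0624 on gir root arrays and 1.5 ± 0.085 on those of Col-7. The 25S control ranged over 389.5 to 774 for gir and over 866 to 1270 for Col-7. Of the 2 root hair genes, EXPA7 was higher in gir roots (log2 difference 0.44 ± 0.07, adjusted p = 0.0052 in the limma fit), while EXPA18 did not pass the threshold of 0.05. The part of these measures in the ATG8 differences was not tested. In such bulk tissue, a change in the share of cells of a type and a change in RNA per cell cannot be told apart.

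**Figure D1:**
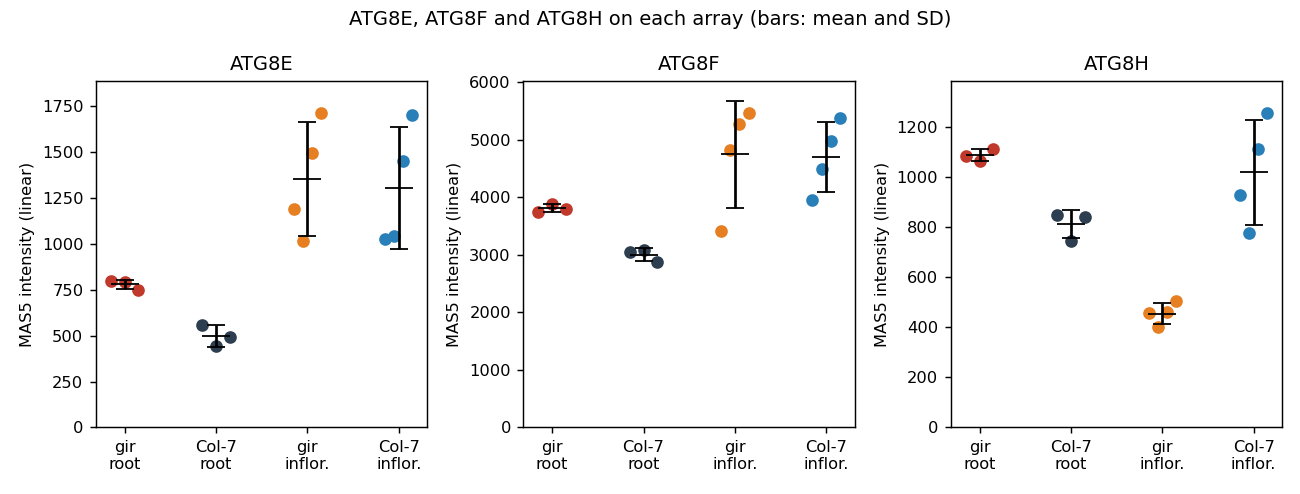
MAS5 intensity (vertical axis, linear) of ATG8E, ATG8F and ATG8H on each of the 14 arrays, with gir left of Col-7 in roots (3 arrays each) and in inflorescences (4 arrays each). Points are arrays in replicate order and black bars are the mean and SD. The gir root arrays lie above the Col-7 root arrays for all 3 genes, the inflorescence groups overlap for ATG8E and ATG8F, and the gir inflorescence arrays of ATG8H (402 to 505) lie below all other arrays of that gene.

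In inflorescences the 3 genes parted. ATG8H in gir was at 0.466 of its Col-7 level, while ATG8E and ATG8F had overlapping levels in the genotypes. ATG8H measured 456, 402, 460.3 and 505 on the gir arrays, against 931, 779, 1113 and 1259.8 on the Col-7 arrays. Every gir array was below every Col-7 array. The means were 456 ± 42.2 in gir and 1021 ± 209.9 in Col-7 (SD, n = 4 each), a log2 difference of -1.10 ± 0.14 (SE), or 0.466-fold. Of the 13970 probe sets tested in inflorescences, 4.24% had a more negative difference than ATG8H, and 13.0% had all gir arrays below all Col-7 arrays. As the gene was picked on this contrast, nothing can be read from its place among them. All gir arrays lay above Col-7 in roots and below in inflorescences for 2.10% of the 11911 probe sets that could be tested in each tissue, ATG8H among them.

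ATG8E measured 1189, 1015, 1495 and 1715 in gir inflorescences, against 1024, 1040.2, 1449 and 1702 in Col-7 inflorescences. The genotypes covered the same range. The log2 difference was 0.06 ± 0.20. ATG8F measured 3409, 4819, 5275 and 5471 in gir inflorescences, against 3951, 4495, 4971 and 5367 in Col-7 inflorescences. Here too the ranges overlapped, with gir replicate 1 lowest of all. The log2 difference was 0.00 ± 0.15. With the replicate number as a block, the SE was 0.07 for ATG8E and 0.08 for ATG8F, around the same differences of 0.06 and 0.00. For ATG8H the block gave -1.10 ± 0.08.

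Much of the inflorescence spread of ATG8E and ATG8F followed the replicate number and not the genotype, a pattern seen after the values were known. ATG8H also shifted with the replicate number, but by less than its genotype difference. ATG8E in replicates 3 and 4 exceeded replicates 1 and 2 by 0.53 on the log2 scale in gir and by 0.59 in Col-7. For ATG8F the same shift was 0.40 in gir and 0.29 in Col-7, and for ATG8H it was 0.16 in gir and 0.46 in Col-7. In all 3 genes both arrays of replicates 3 and 4 lay above both arrays of replicates 1 and 2 within each genotype, which held for 11.3% of all tested probe sets. The genotype difference of ATG8H was -0.95 within replicates 1 and 2 and -1.25 within replicates 3 and 4. For ATG8E those values were 0.09 and 0.03, and for ATG8F -0.06 and 0.06.

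**Figure D2:**
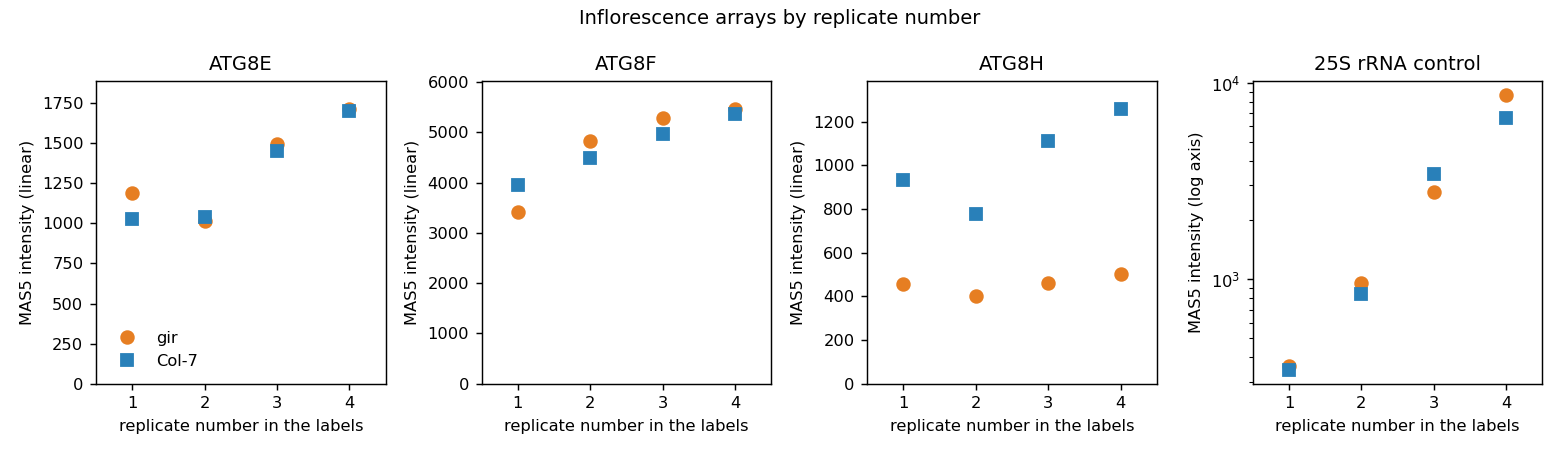
MAS5 intensity of ATG8E, ATG8F and ATG8H (linear axes) and of the 25S ribosomal RNA control (log axis) on the 8 inflorescence arrays, by the replicate number of the labels, with gir as circles and Col-7 as squares. ATG8E and ATG8F of both genotypes lie close together and are higher in replicates 3 and 4, as the 25S control is, while ATG8H is lower in gir at every number.

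Late pollen transcripts were low on the same gir arrays on which ATG8H was low. In the limma fit every late pollen gene that was tested, 5 in number, fell in gir inflorescences, and 12.5% of all tested probe sets were called lower. For 3 of them, ANX2, MGH3 and AT59, no gir array reached the filter level, so they were tested only through the Col-7 arrays on which they are high and the count is no independent support. The 5 genes were ANX2, a receptor-like kinase of pollen tubes, the pollen actin gene ACT12, the male germ line histone gene MGH3, the pectate lyase homologue AT59 and VEX1, a gene of the pollen vegetative cell. Their log2 differences ran from -3.53 (AT59, adjusted p = 3.2e-07) to -2.17 (ACT12, adjusted p = 5.6e-07). The summed intensity of the 6 measured late pollen probe sets was 565 to 927 in gir inflorescences and 5281 to 6062 in Col-7 inflorescences. ANX1, the sixth, was dimmest at 7.37 to 31.4 in gir against 117.5 to 136 in Col-7, and none of these 6 was at 0. None of the 6 tapetum and early anther genes passed the threshold between the genotypes. AT1G75920 (-0.47, adjusted p = 0.051) and EMS1 (0.30, adjusted p = 0.069) came near it in opposite directions, and the others lay between -0.09 and 0.07. Photosynthetic transcripts moved the other way, with RCA at 0.26 ± 0.08 (adjusted p = 0.033) and LHCB4.1 at 0.32 ± 0.08 (adjusted p = 0.018). In roots, where the late pollen probe sets summed to only 32.4 to 35.9 in gir and 32.3 to 51.9 in Col-7, ATG8H measured 748 or more on every array. Their part in the inflorescence difference was not tested.

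**Figure D3:**
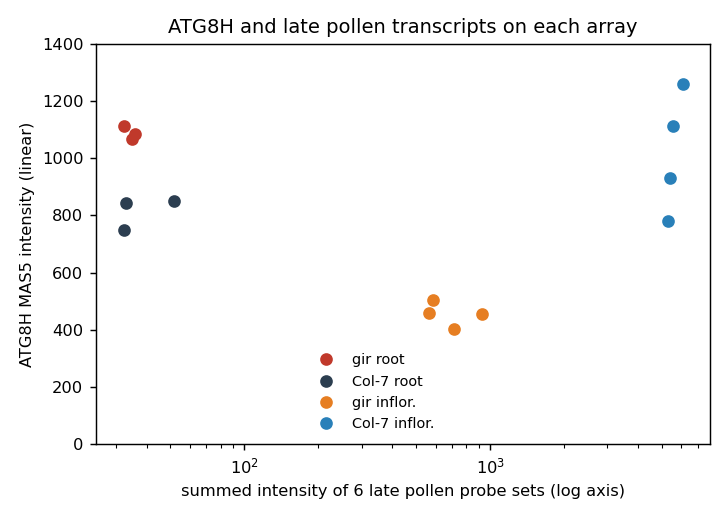
ATG8H intensity (vertical axis, linear) against the summed intensity of 6 late pollen probe sets (horizontal axis, log) on each of the 14 arrays, coloured by group. The gir inflorescence arrays are low in both measures relative to Col-7 inflorescences, while the root arrays have ATG8H at 748 to 1114 with late pollen sums of at most 51.9.

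Among the other 6 ATG8 genes, none passed the threshold between gir and Col-7 roots, and ATG8B alone did in inflorescences, where it fell. Over all tested probe sets, 5.49% were called higher and 6.36% lower in gir roots, and 12.5% were called in each direction in gir inflorescences. ATG8B (AT4G04620) measured 1103, 1034, 1269 and 1180.1 in gir inflorescences, against 1367, 1453, 1809 and 1682 in Col-7 inflorescences. Every gir array lay below every Col-7 array. The log2 difference was -0.45 ± 0.11 (adjusted p = 0.012, limma), and with replicates 1 and 2 alone it was -0.39 and did not pass (adjusted p = 0.086). In roots ATG8B was at 0.06 ± 0.07 (adjusted p = 0.64). The difference between those effects, inflorescence minus root, was -0.51 ± 0.14 and passed its own test (adjusted p = 0.019, with 18.2% of all probe sets called), but not without Col-7 root replicate 2 (adjusted p = 0.052).

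The remaining paralogues gave values without a call. ATG8D (AT2G05630) in roots was at 0.27 ± 0.08 with all gir arrays above all Col-7 arrays, and missed the threshold (adjusted p = 0.068). It passed with the stricter filter at the 60th percentile (0.27, adjusted p = 0.044) and without Col-7 root replicate 1 (0.34, adjusted p = 0.049). ATG8I, the closest relative of ATG8H, was at 0.19 ± 0.08 in roots (adjusted p = 0.16) and at -0.04 ± 0.10 in inflorescences (adjusted p = 0.79). ATG8A (AT4G21980) was at 0.14 ± 0.08 in roots and -0.24 ± 0.12 in inflorescences (adjusted p = 0.30 and 0.18). ATG8C and ATG8G lay between -0.09 and 0.06 in both tissues. The median over these 6 genes was 0.10 in roots, where all tested probe sets had a median of -0.01, and -0.07 in inflorescences, where the median of all was 0.06. Since the 3 genes described first had been taken out of the family for their differences, low counts among the rest follow in part from that choice.

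**Figure D4:**
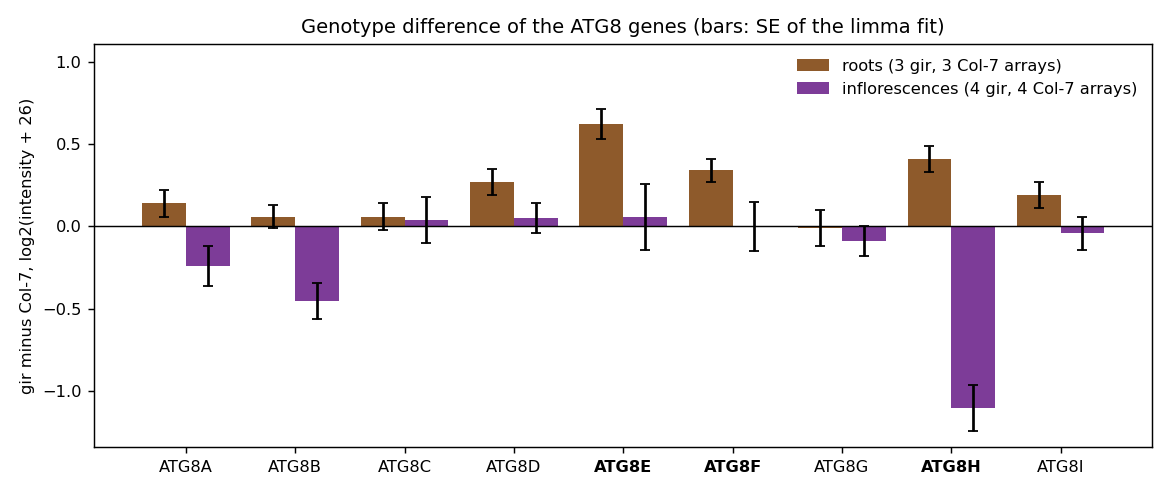
Log2 difference between gir and Col-7 (vertical axis, gir minus Col-7) for the 9 ATG8 genes in roots and in inflorescences, with bars for the SE of the limma fit. ATG8E, ATG8F and ATG8H, in bold, were chosen with these differences known and have the highest root values (0.62, 0.34 and 0.41), and ATG8H (-1.10) and ATG8B (-0.45) have the lowest inflorescence values.

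Beyond ATG8 itself, the autophagy list held 59 loci, of which 22 (the 6 other ATG8 genes included) had a probe set that named them alone. None of the 10 loci for membrane supply (ATG2, ATG9 and the ATG18 group) and none of the 7 for cargo receptors and adaptors was among them, so those steps were not analysed here. In roots 20 of the 22 genes were tested, of which 2 rose in gir and none fell. Both encode vacuolar processing enzymes, proteases that mature other vacuolar hydrolases and take part in the lytic end of the pathway. ALPHA-VPE (AT2G25940) averaged 542 in gir roots, against 377 in Col-7 roots (0.51 ± 0.11, adjusted p = 0.021), and GAMMA-VPE (AT4G32940) averaged 3548 in gir roots, against 2847 in Col-7 roots (0.31 ± 0.08, adjusted p = 0.032). These 2 calls rest on single arrays. Without gir root replicate 1 or 2 neither passed, and GAMMA-VPE also failed when any Col-7 root array was left out, with adjusted p of 0.04 to 0.12 over the 6 arrays left out in turn and 0.032 to 0.08 for ALPHA-VPE. BETA-VPE was at -0.13 ± 0.13 (adjusted p = 0.58). The 2 of 20 called higher stand beside the 5.49% of all tested probe sets, and the median log2 difference of the 20 was 0.05, beside -0.01 over all.

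Only 3 of the 9 conjugation loci and 6 of the 8 initiation loci had such a probe set. All 3 conjugation genes were tested in each tissue, and of the 6 initiation genes 4 in roots and 5 in inflorescences. None of those tested was called for genotype in the main fits. AT3G18770, entered as ATG13B, was too dim for the filter in both tissues. It averaged 51.9 in gir and 87.8 in Col-7 roots (-0.55), with all gir arrays below all Col-7 arrays. In inflorescences it was at -0.09, with overlap. ATG3, the enzyme that passes ATG8 to the lipid, was at 0.06 ± 0.07 in roots and 0.09 ± 0.08 in inflorescences (adjusted p = 0.67 and 0.42). AT3G59950 and AT5G50230, entered in the list as an ATG4 protease and as ATG16, lay between -0.02 and 0.09. RAPTOR1A and RAPTOR1B encode partners of TOR. RAPTOR1A was at 0.04 in roots and -0.12 in inflorescences, and RAPTOR1B at 0.12 and 0.21 (adjusted p = 0.33 and 0.086). RAPTOR1B was called higher in inflorescences after quantile normalization (0.26, adjusted p = 0.045), after median centring (0.26, adjusted p = 0.04) and in the joint fit (0.21, adjusted p = 0.036). In inflorescences 19 of the 22 were tested and ATG8B, lower in gir, was the 1 call. Over all tested probe sets, 12.5% were called higher and 12.5% lower. The median log2 difference of the 19 was -0.09, beside 0.06 over all tested probe sets. With the replicate number as a block, which takes the pairs of inflorescence arrays into account, 2 were lower, ATG8B (adjusted p = 0.0021) and ATG101 (-0.29, adjusted p = 0.04), a partner of the ATG1 kinase. Without the block ATG101 did not pass (adjusted p = 0.14).

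Between the tissues, ATG8E was higher in inflorescences than in roots in both genotypes, ATG8F was called higher in Col-7 alone, and ATG8H was lower in gir inflorescences than in gir roots. This contrast was not used to pick the genes, although it uses the same arrays. A gene picked for high gir roots and low gir inflorescences, as ATG8H was, is favoured to come out lower in gir inflorescences. Picking ATG8E and ATG8F with gir roots above Col-7 roots likewise favours a larger difference between tissues in Col-7 than in gir. Their p-values for this contrast are therefore not independent of the choice. Tissue is also mixed with age, medium, glucose and array handling, which cannot be told apart. The dap control, a spiked transcript, lay at 188 to 264 on gir and 194 to 255 on Col-7 inflorescence arrays, and at 0.805 to 8.07 on gir and 0.653 to 12.6 on Col-7 root arrays.

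ATG8E differed by 0.75 ± 0.16 in gir (inflorescence mean 1353, root mean 778, adjusted p = 0.0022) and by 1.32 ± 0.18 in Col-7 (inflorescence mean 1304, root mean 498, adjusted p = 8.9e-05, limma). The inflorescence arrays lay above the root arrays in both genotypes, as for 39.2% of all tested probe sets in gir and 38.0% in Col-7. ATG8F differed by 0.63 ± 0.11 in Col-7 (adjusted p = 0.00047). In gir it was at 0.29 ± 0.15 and did not pass (adjusted p = 0.11), but it passed without gir inflorescence replicate 1, the low array named above (0.44, adjusted p = 0.00094). ATG8H differed by -1.22 ± 0.09 in gir (inflorescence mean 456, root mean 1089, adjusted p = 1.4e-06), with all inflorescence arrays below all root arrays, as for 36.9% of the tested probe sets. In Col-7 it was at 0.30 ± 0.15 (inflorescence mean 1021, root mean 814), with overlapping arrays and no call (adjusted p = 0.096), except without Col-7 inflorescence replicate 2 (0.42, adjusted p = 0.013). The threshold was passed by 75.9% of all probe sets tested in gir and 77.8% in Col-7, so 2 calls among 3 genes in each genotype lie near that background.

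Over the 4 groups, the order of ATG8E from high to low was gir inflorescences, Col-7 inflorescences, gir roots and Col-7 roots, and the first pair did not differ beyond its spread. ATG8F had the same order, with overlap also between gir inflorescences and gir roots. For ATG8H the order was gir roots, Col-7 inflorescences, Col-7 roots and gir inflorescences. Col-7 inflorescences overlapped with both kinds of root there, and gir inflorescences stood alone at the low end.

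The other ATG8 genes did not all go one way between tissues. In Col-7 all 6 passed, with 4 higher in inflorescences (ATG8B, ATG8C, ATG8D and ATG8G) and 2 lower (ATG8A and ATG8I). In gir 4 passed, ATG8B and ATG8C as higher and ATG8A and ATG8I as lower. These counts stand beside the 77.8% of all tested probe sets that passed in Col-7 and the 75.9% that passed in gir. ATG8B differed by 0.56 ± 0.09 in gir and by 1.07 ± 0.11 in Col-7 (adjusted p = 0.00038 and 1.1e-05). ATG8C differed by 0.78 ± 0.12 in gir and by 0.79 ± 0.13 in Col-7. ATG8I was at -0.69 in gir and -0.45 in Col-7, and ATG8A at -0.81 in gir and -0.43 in Col-7. The ATG8G call (0.24 ± 0.10, adjusted p = 0.041) was lost with 5 of the 7 Col-7 arrays left out in turn (adjusted p of 0.016 to 0.14), and after quantile normalization (0.14, adjusted p = 0.2) or median centring (0.09, adjusted p = 0.4). Median centring moved the median of all tested probe sets by -0.14 in gir and by -0.15 in Col-7.

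**Figure D5:**
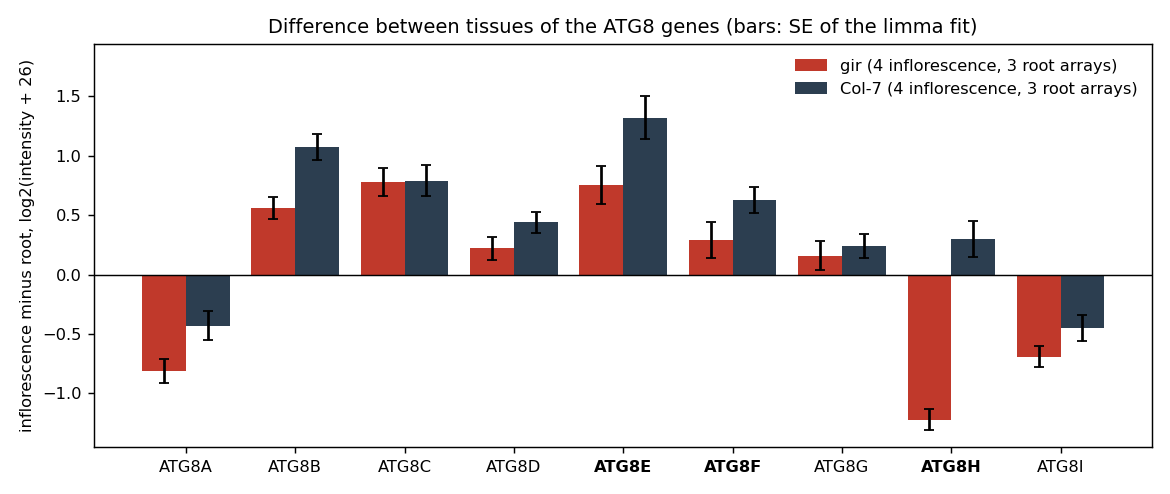
Log2 difference between inflorescences and roots (vertical axis, inflorescence minus root) of the 9 ATG8 genes in gir and in Col-7, with bars for the SE of the limma fit. ATG8E is above 0 in both genotypes, ATG8A and ATG8I are below 0 in both, and ATG8H is at -1.22 in gir and 0.30 in Col-7.

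In the whole list of 22, 21 genes were tested between tissues in gir, where 4 were higher and 8 lower in inflorescences, and 20 in Col-7, where 5 were higher and 7 lower. Of all tested probe sets, 39.4% were higher and 36.6% lower in gir, and 38.1% were higher and 39.7% lower in Col-7. The list medians were -0.12 in gir and 0.01 in Col-7, beside 0.03 and -0.02 over all. Apart from the ATG8 genes, those lower in both genotypes were AT3G59950 (ATG4 protease in the list), AT3G61960 (ATG1 kinase in the list), RAPTOR1B, ALPHA-VPE and BETA-VPE. ALPHA-VPE averaged 35.0 in gir inflorescences and 542 in gir roots, a log2 difference of -3.23 ± 0.11 (adjusted p = 4.5e-09). BETA-VPE was at -2.58 in gir and -1.83 in Col-7. No inflorescence array of ALPHA-VPE in either genotype and no gir inflorescence array of BETA-VPE reached the filter level, so in gir both were tested only through the root arrays on which they are high, and the added 26 limits the size of these differences. Between genotypes in inflorescences neither was tested at the 40th percentile. BETA-VPE averaged 69.1 in gir and 151 in Col-7 there, with all gir arrays below all Col-7 arrays, and was called lower without the filter (-0.89, adjusted p = 0.028) and with replicates 1 and 2 alone (-1.09, adjusted p = 0.017). AT3G53930 (lower) and AT5G50230 (higher) passed in gir alone, and AT2G32760 (higher) in Col-7 alone. For AT3G53930, AT5G50230 and AT2G32760 the test of the difference between genotypes did not pass (adjusted p = 0.45, 0.69 and 0.9). AT1G49180 was called higher in gir (0.61, adjusted p = 0.00081), where it was tested only through its inflorescence arrays. In Col-7 it was too dim for the filter, with a difference of 0.72 and all inflorescence arrays above all root arrays, and it was called without the filter (adjusted p = 0.0047). The calls of AT5G50230 (adjusted p = 0.021) and AT2G32760 (adjusted p = 0.046) were lost without single arrays, with adjusted p up to 0.082 and 0.15.

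Of 6355 other probe sets that named 1 gene and were tested in both tissues, those most like each ATG8 gene were found by Pearson's r over the 14 arrays, after each tissue's mean was subtracted. These are descriptions, since the arrays share the genotype effect and the replicate split. ATG8H was most like AT2G36320 (r = 0.978), AT4G14930 (r = 0.965) and AT4G25900 (r = 0.961), which were at -0.57, -0.66 and -0.64 on the log2 scale between gir and Col-7 inflorescences and at 0.30, 0.14 and 0.24 between the roots. ATG8E was most like AT2G30740 (r = 0.941), AT2G26210 (r = 0.934) and AT4G02370 (r = 0.920), with root differences of 0.27 to 0.31. ATG8F was most like PMEPCRF (AT5G53370, r = 0.947), AT4G35750 (r = 0.927) and AT4G19160 (r = 0.920), with root differences of 0.30 to 0.40. Among the 3 genes themselves r was 0.76 for ATG8E with ATG8F, 0.34 for ATG8E with ATG8H and 0.27 for ATG8F with ATG8H.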

How the data were processed

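Gene expression was measured on Affymetrix arrays. The authors deposited linear intensities from MAS5, per the submitters' processing notes. Its version and the genome build are not given in the sources used here. On every array the mean without the lowest and highest 2% was 499.8 or 499.9. The precision is limited by the number of arrays. Samples were grouped by the genotype and tissue in their titles.

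From these, log2(intensity + 26) was computed, with 26 taken from the 20th percentile over the arrays. After 64 control probe sets had been removed, a probe set entered a test where it reached its array's 40th percentile on as many arrays as the smaller group holds. Each tissue, or each genotype, was fitted alone with limma 3.58.1 (lmFit, eBayes) in R 4.3.3, two-sided, with Benjamini-Hochberg adjustment over all tested probe sets and a threshold of 0.05. The difference of genotype effects between tissues was the interaction over 14 arrays. A list gene was counted once, by its brightest probe set. The fits were tested on simulated data. Plots used Python 3.11.15 and matplotlib 3.10.9.

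Genes were named from the platform annotation through the TAIR10.1 gene table. The annotation listed 14016 probe sets, and 13513 named 1 gene, 13436 of them in the table, and 503 named several. Another 8730 are unnamed here. The genes, lists, tests and alternatives were chosen with earlier results of these data known. All ATG8 genes and up to 10 list genes past the threshold per comparison were named. Same-numbered arrays of gir and Col-7 deviated together in inflorescences (r = 0.587, 0.191, 0.203 and 0.516) and were taken as pairs, since every value exceeds 0.1. Whether the split by replicate number seen in the 25S control accounts for these values was not tested. The main inflorescence fits did not use the pairs, which entered only in the alternative with the replicate block. In roots r was 0.077, 0.007 and 0.017, and those numbers were not taken as pairs. Between tissues it was at most 0.023.

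The alternatives were quantile normalization, median centring, an added 5 in place of 26, no filter or the 60th percentile, a joint fit, the replicate block, each array left out, and inflorescence replicates 1 and 2 or 3 and 4 alone.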

Additional observations from a re-analysis of the deposited data

Results flagged for a closer look

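The genotype effect of ATG8H went opposite ways in the tissues, with all gir root arrays above and all gir inflorescence arrays below those of Col-7. The effects differ by -1.51 on the log2 scale, inflorescence minus root. That difference was not tested, since the gene had been picked on it, and 2.10% of the 11911 probe sets tested in both tissues showed the same array order. The genotype effect of ATG8B differed between tissues by -0.51 in the interaction test (adjusted p = 0.019, against 18.2% of all probe sets called). No array was flagged as far from the rest of its group in 54 checks of the 4-array groups of the ATG8 and list genes. Single arrays could still decide a call, as gir inflorescence replicate 1 did for ATG8F between tissues in gir.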

How the results depend on the processing

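Every described gir minus Col-7 difference of ATG8E, ATG8F and ATG8H moved by less than 1 SD between replicates under all alternatives run, and no call reversed. Of 252 values recomputed for the main results, 231 kept their call or size. ATG8F passed between tissues in gir after quantile normalization (0.42) and with inflorescence replicates 3 and 4 alone (0.49), and without 1 array ran from 0.22 to 0.44. ATG8H passed between tissues in Col-7 in the joint fit (0.30) and with replicates 3 and 4 alone (0.53), and without 1 array ran from 0.19 to 0.42. The count of autophagy list genes past the threshold in inflorescences was 1, and became 2 with quantile normalization, median centring, no filter, the joint fit and the replicate block. In roots it was 2, and became 3 with the stricter filter (ATG8D added), 0 without the filter, 1 in the joint fit, 1 with the replicate block, and 0 to 2 without 1 array. For the genotype effect by tissue it was 1 of the 18 list genes tested, beside 18.2% of all tested probe sets. That count became 2 with replicates 1 and 2 alone (BETA-VPE added) or 3 and 4 alone (ATG8A added), and was 0 to 1 without 1 array. These alternatives for the effect by tissue were added after seeing the data. Over all probe sets, the count past the threshold in roots (1636) was 616 without the filter, 707 in the joint fit and 814 to 1216 without 1 array, and in inflorescences (3487) it was 1669 with replicates 1 and 2 alone. Median centring moved the share of higher calls from 46.3% to 60% in roots and from 50% to 61.1% in inflorescences. The replicate block changed no call of ATG8E, ATG8F or ATG8H between tissues. Same-numbered root and inflorescence arrays did not deviate together (r of at most 0.023), so the block is no check of those calls.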
